A study of Mus musculus with 25 samples.

Results

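Cd37, Zap70, Apobr and Lsp1 are 4 genes expressed mainly by white blood cells, and DNA methylation in and around them was measured by reduced representation bisulfite sequencing (RRBS) of mouse mammary fat pads. They were chosen from earlier results on these same libraries because methylation was lower in weight-loss mice than in Control mice. The description takes every CpG that the authors' table assigns to 1 of these genes at an average coverage of 10 reads or more. These are 98 of the genes' 102 CpGs, among 260376 such CpGs in the whole table, with 14 in Cd37, 52 in Zap70, 14 in Apobr and 18 in Lsp1. The values are methylation levels, the percentage of reads of a CpG that kept their cytosine after bisulfite treatment, and differences between levels are in percentage points.

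All mice were C57BL/6N and labelled wild type (wt). Control mice ate the control diet D12450J throughout, and all other mice first became obese on the 60% high fat diet D12492. Obese mice stayed obese, and the 4 weight-loss groups changed to an unrestricted low-fat diet (LFD), low-fat feeding restricted by 30% of calories (LFCR), Mediterranean-style feeding with the same 30% restriction (MCR) or intermittent calorie restriction (ICR). Every group received E0771 mouse mammary cancer cells in the 4th mammary fat pad 25 weeks after the first randomization, and the DNA came from the opposite, 9th pad. Control is therefore tumor-bearing too, and it was never obese, so a weight-loss group against Control cannot separate the diet from the earlier obesity. The labels call the tissue contralateral normal mammary tissue, but they also name the E0771 line as the cell line and carry the word tumor in the titles. The mice's ages and sex were not used here.

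The 25 libraries comprise 5 Control, 4 Obese, 4 LFD, 4 LFCR, 3 MCR and 5 ICR, each taken as 1 mouse and named here by the number in its title. No label states that the libraries are separate mice, so the p-values measure the spread between libraries. Obese mice 27, 28 and 40 and LFD mouse 46 were left out: at 32071 CpGs with a mean under 5% in Control these 4 libraries averaged 48.8% to 49.2%, against 1.09% to 1.99% in the other 21. That leaves 5 Control, 1 Obese, 3 LFD, 4 LFCR, 3 MCR and 5 ICR mice. The depth of each library is unknown, because the table gives only an average coverage per CpG, with a median of 37.7 reads over the 98 CpGs (10.5 to 198). The share of the table's CpGs with a value was uneven, from 48.3% in Control mouse 1 and 52.0% in MCR mouse 95 to 99.5% in Obese mouse 22. Over all CpGs measured in every library, MCR had the lowest mean methylation, 46.8% ± 0.343 (SD, n = 3), and Control the highest, 56.1% ± 1.52 (SD, n = 5). Between them lay LFCR at 50.0% ± 3.87 (SD, n = 4), LFD at 51.8% ± 3.18 (SD, n = 3) and ICR at 53.1% ± 1.48 (SD, n = 5). LFD mouse 42 and LFCR mice 63 and 67 were as low as MCR or nearly so, at 48.3%, 46.5% and 47.1%.

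Methylation of cytosine in CpG pairs is copied through cell division and, near the start of a gene, usually accompanies silence of that gene. Many genes that serve blood cells are methylated in other tissues and unmethylated in the lineage that uses them. Fat pads hold adipocytes, epithelium, vessels, fibroblasts and resident leukocytes, and the table mixes all of them. In such bulk tissue a change in the proportions of cells and a change of methylation within cells cannot be told apart. Cd37 encodes a tetraspanin, a membrane organiser found above all on B cells. Zap70 is the kinase that binds the phosphorylated T cell receptor, Apobr is a receptor through which macrophages take up apolipoprotein B48 remnants, and Lsp1 is an F-actin-binding protein of leukocytes that acts in migration. The table holds no expression, so neither the tissue label nor the use of these genes by any cell could be checked.

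The 2 sequences that follow are the start regions of Cd37 and Zap70. They are shown because in both genes a cluster of CpGs beside the annotated start had a higher, not lower, mean level in MCR than in Control. Both come from RefSeq on GRCm38.p6, the build that mm10 names, and run 5′ to 3′ along the gene. The Cd37 stretch is chr7:45238840-45239089 on the minus strand, the 250 bases before the start, and the Zap70 stretch is chr1:36761548-36761827 on the plus strand, 250 bases before and 30 bases from the start. Capitals mark the CpGs that were measured at the coverage minimum, of which Zap70 has 2 and Cd37 none.
Cd37: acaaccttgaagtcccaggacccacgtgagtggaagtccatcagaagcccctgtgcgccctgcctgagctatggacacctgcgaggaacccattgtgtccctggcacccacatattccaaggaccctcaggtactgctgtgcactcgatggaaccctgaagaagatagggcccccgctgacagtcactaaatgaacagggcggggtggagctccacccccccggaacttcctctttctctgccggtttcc
Zap70: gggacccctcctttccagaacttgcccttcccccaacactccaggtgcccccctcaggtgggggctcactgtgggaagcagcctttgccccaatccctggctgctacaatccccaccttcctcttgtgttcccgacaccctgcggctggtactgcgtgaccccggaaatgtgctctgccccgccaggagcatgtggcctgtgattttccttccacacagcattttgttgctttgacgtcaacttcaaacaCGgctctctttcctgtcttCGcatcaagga
Each of these stretches holds 8 CG pairs. The 2 measured Zap70 CpGs lie at the start and 19 bp past it, so no CpG before either start is among the 98 described. In the full RefSeq windows of 300 bases, the ETS core CCGGAA, searched on both strands, occurred 1 time in Cd37, 1 time in Zap70 and 0 times in Apobr, and it occurs in 14.9% of 32851 such windows. The cAMP response element TGACGTCA occurred 1 time in Zap70 and in neither other gene (1.79% of windows), and the RUNX core TGTGGT in none of the 3 (16.8% of windows). The motifs do not overlap in their letters, and a match describes the sequence only. Lsp1 is named without a window.

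Across the 98 CpGs, the level in MCR was lower than in Control at 75 and higher at 23, with a median difference of -15.2 points. Over all 260376 CpGs the median was -6.37 points and 71.9% were lower. The extremes among the members were -53.5 and 46.4 points, both in Cd37. LFCR was lower at 74 and higher at 24 (median -10.3 points, against -3.73 over all CpGs), LFD at 77 and 21 (-6.91 against -2.55), and ICR at 74 and 24 (-6.51 against -1.77). Because all of these differences use the same 5 Control mice, and because losses in MCR and LFCR led to the choice of the genes, the counts describe the members and test nothing. Obese mouse 22 was lower than the Control mean at 54 CpGs and higher at 44.

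The direction differed between stretches of the genes. Every MCR mouse was below every Control mouse at 50 of the 91 CpGs with at least 2 mice in both groups, and above at 8. In the whole table these shares are 31.2% and 4.73%. Every LFCR mouse was below every Control mouse at 14 of 98 CpGs and above at 1, against 10.1% and 1.96% in the whole table. CpGs annotated to a 1st exon had a median MCR difference of -34.6 points (22 CpGs), those in a 3'UTR of -21.1 points (10), those in gene bodies of -11.6 points (60) and those in a 5'UTR of -1.53 points (6). Of the 4 genes, Apobr alone had no CpG with a higher mean in MCR (0 of 14), whereas Zap70 had 16 of 52, Cd37 4 of 14 and Lsp1 3 of 18. The counts are read beside the rule's own contrast, so no weight rests on them.

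**Figure D1:**
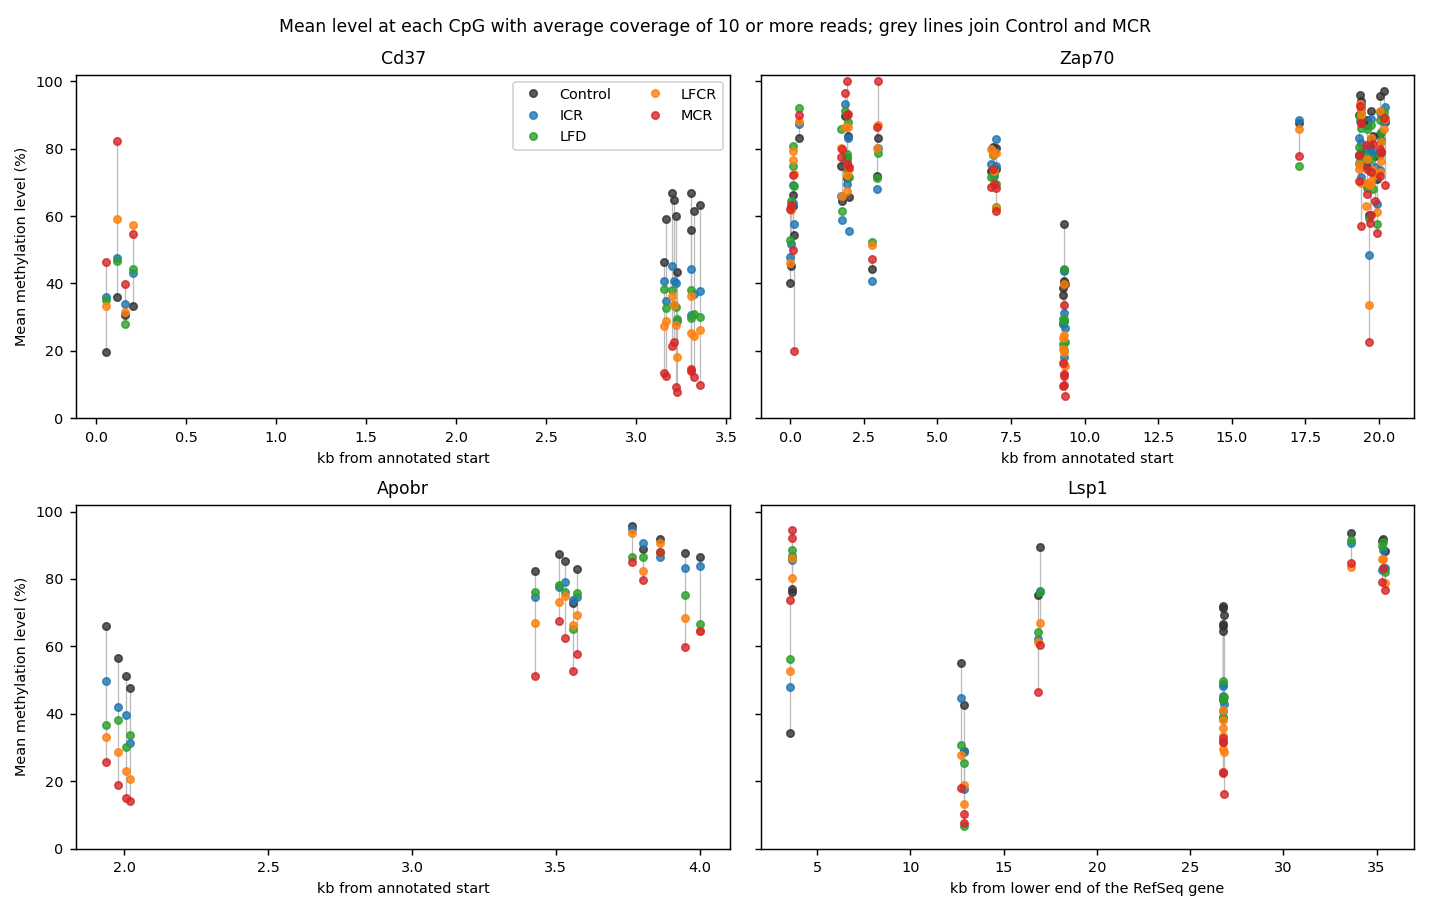
Mean methylation level (y axis, %) at each of the 98 CpGs against distance in kb from the RefSeq start, or for Lsp1 from the lower end of the RefSeq gene (x axis), with 1 point per diet group and a grey line joining Control and MCR. The CpGs fall into separated clusters: at the start of Cd37 and Zap70 and at the left end of Lsp1 the MCR points lie mostly above Control, and farther along they lie below it at all CpGs but 1 in Zap70.

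CpGs of 1 gene no more than 500 bp apart were joined into clusters, and 14 clusters held at least 3 CpGs. They are numbered from the start of the gene, and from the lower coordinate in Lsp1. Where mice of a group are said below to lie outside the Control range at a cluster, no share over all clusters is available. Such statements describe the cluster only. In MCR 9 clusters (70 CpGs) were lower than Control and 5 (24 CpGs) were higher. The 9 were lower in all 4 weight-loss diets. Of the 5, Cd37 cluster 1, Zap70 cluster 1 and Lsp1 cluster 1 were higher in all 4 diets, while Zap70 clusters 2 and 3 were higher in MCR, LFCR and LFD and lower in ICR. The description as genes with methylation losses therefore holds for every cluster of Apobr and for some clusters of the other 3 genes. No pad was sampled before the diets, and a loss or gain means only a level under or over that of Control.

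**Figure D2:**
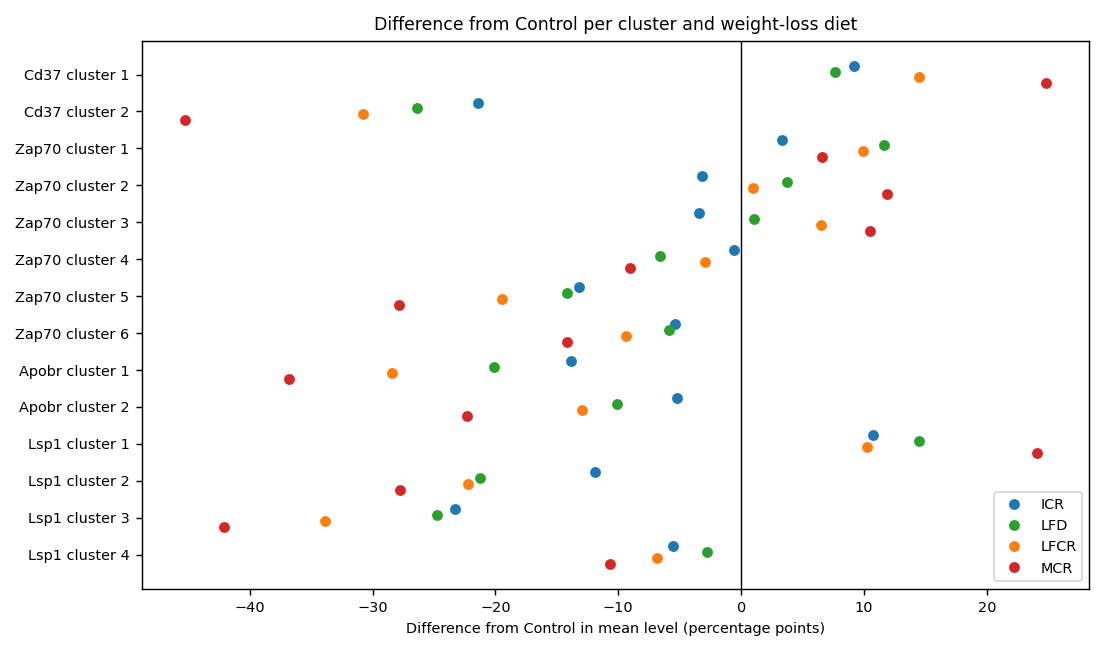
Difference of the mean level from Control (x axis, percentage points) for the 14 clusters (rows) in ICR, LFD, LFCR and MCR, 1 point per diet, with no error drawn because all diets share the Control mice. Cd37 cluster 2, at -45.2 points in MCR, lies farthest to the left, and Cd37 cluster 1, at 24.8 points, farthest to the right.

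Cd37 held both of these extremes. Cluster 2 has 10 CpGs at chr7:45235483-45235683 (mm10), 3156 to 3356 bp past the RefSeq start, and the table annotates 8 of them to a 1st exon. Control mice had 66.9, 67.7, 49.7, 50.8 and 60.9%, with a mean of 59.2% ± 8.59 (SD, n = 5); here and below, values of single mice follow the order of the mouse numbers. MCR mice had 5.33, 18.6 and 18%, with a mean of 13.97% ± 7.49 (SD, n = 3). All 3 MCR mice lay under every Control and every ICR mouse at this cluster. LFCR mice had 12.4, 17.9, 32.02 and 51.5% and LFD mice had 22.3, 51.9 and 24.4%. In each of these groups 1 mouse, LFCR mouse 72 and LFD mouse 47, remained within the Control range. ICR mice had 28.99, 29.7, 44.1, 47.7 and 38.4%, all below the lowest Control mouse, and Obese mouse 22 had 43.8%.

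The size of the drop differed between single CpGs of the cluster. At chr7:45235483 Control mice had 73.3, 69.2, 52.4, 52.4 and 69.8% and MCR mice 4.76, 8.33 and 16.7%. This is the largest loss among the 98 CpGs, at an average coverage of 29.6 reads. At chr7:45235683 the means were 46.4% in Control (4 mice) and 13.6% in MCR (2 mice). All 10 CpGs of the cluster had every MCR mouse with a value below every Control mouse, as did 31.2% of CpGs in the whole table. They lie close together in the same mice and are not separate observations. Losses in MCR also led to the choice of the gene.

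Cluster 1 of Cd37 has 4 CpGs at chr7:45238633-45238785, only 54 to 206 bp past the start, next to the sequence printed above. Control mice had 48.3, 8.23, 20.3, 56.1 and 21.6% and the 2 MCR mice with a value had 56.2 and 55.3%. LFCR mice had 63.5, 41.7 and 31.05%, LFD mice 58.6, 30.3 and 26.7% and ICR mice 37.5, 60.1, 40.3, 30.8 and 31.6%. The Control values spread widely, and Control mouse 10 lay between the 2 MCR mice, so the groups overlap. The mean was 30.9% ± 20.3 (SD, n = 5) in Control and 55.7% ± 0.578 (SD, n = 2) in MCR, and Obese mouse 22 was at 21.8%. At chr7:45238722 the 5 Control mice had 50.0, 9.52, 25, 70.0 and 25% and the 2 MCR mice 92.3 and 72.2%, the largest gain among the members. Both clusters carry the annotation 1st exon, so the annotation does not separate them.

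Zap70 had 6 clusters along its length and again both directions. Cluster 5, the only one of the 14 in a CpG island, has 7 CpGs at chr1:36771049-36771120, annotated to a 1st exon, 9251 to 9322 bp past the first of the gene's 3 RefSeq starts. Control mice had 37.6, 55.4, 28.2, 42.8 and 47.7% and MCR mice 15.3, 9.6997 and 18.6%. No MCR mouse reached the lowest Control mouse. LFCR mice had 12.6, 15.995, 26.4 and 36.6%, LFD mice 17.1, 41.6 and 25.7% and ICR mice 26.6, 21.4, 27.96, 23.2 and 46.4%. One mouse in each of these groups stayed inside the Control range. The Control mean was 42.3% ± 10.3 (SD, n = 5), and the lowest mean was that of MCR, 14.5% ± 4.48 (SD, n = 3). The other diets lay between, LFCR at 22.9% ± 10.9 (SD, n = 4), LFD at 28.2% ± 12.4 (SD, n = 3) and ICR at 29.1% ± 10.02 (SD, n = 5). Obese mouse 22, at 43.2%, was at the Control mean.

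The clusters nearest the first Zap70 start went the other way. Cluster 1, chr1:36761798-36762108, begins with the CpG at the start itself, capitalised above. Control mice had 53.1, 64.6, 69.3 and 56.9%, LFD mice 75.3, 70.6 and 71.97% and LFCR mice 75.6, 71.5, 72.3 and 64.2%. All 3 LFD mice were above all 4 Control mice with a value, as were 3 of 4 LFCR mice. The 2 MCR mice with a value had 62.2 and 72.9%. Single CpGs of cluster 1 differed in direction. Among the 6 CpGs of the 5'UTR class, MCR was lower at 3, down to -34.4 points at a CpG of this cluster. Only 4 of the 6 had at least 2 mice in both groups. LFCR, LFD and ICR were each lower at 1 of the 6. At cluster 3, chr1:36764563-36764784, which begins just past the second start, Control mice had 58.1, 65.01, 68.4, 66.7 and 73.9% and MCR mice 77.4, 75.6 and 77.8%. Every MCR mouse exceeded every Control mouse there, by a narrow margin. Cluster 2, chr1:36763530-36763808, was at 75.001% ± 3.86 (SD, n = 5) in Control and 86.9% ± 0.552 (SD, n = 2) in MCR, with no value for MCR mouse 95. The differences of clusters 1, 2 and 3 in MCR were 6.56, 11.9 and 10.5 points. With the mean of each library subtracted they were 15.5, 21.03 and 19.8 points. Here and below, this subtraction moves every difference between 2 groups by about the gap between their library means. These averaged 56.1% in Control and 46.8% in MCR, so the shift was fixed in advance and is no finding about a cluster.

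The other Zap70 clusters were lower in MCR, from high levels. Cluster 6, 22 CpGs at chr1:36781111-36781992 in the gene body, was at 85.04% ± 2.25 (SD, n = 5) in Control and 70.9% ± 0.311 (SD, n = 2) in MCR. Its spread was small in these 2 groups, and the 2 MCR mice with a value did not overlap Control. LFCR mice spread more widely, from 69.3% to 80.9% (SD 5.29, n = 4). With library means subtracted the cluster 6 difference of -14.2 points in MCR became -5.08, and the -9.36 points in LFCR became -3.29. Cluster 4, chr1:36768623-36768786, was at 77.5% ± 4.51 (SD, n = 5) and 68.4% ± 5.86 (SD, n = 3), with 1 of 3 MCR mice inside the Control range. On the same scale the difference at cluster 4 changed sign, to 0.239 points in MCR and 3.18 points in LFCR. The single CpG at chr1:36779085, just past the third start, was at 87.7% ± 5.45 (SD, n = 4) in Control and 77.8% ± 5.91 (SD, n = 3) in MCR.

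Apobr was lower in MCR at both of its clusters. Cluster 1, 4 CpGs at chr7:126586945-126587030 annotated to the 1st exon, lies 1937 to 2022 bp past the RefSeq start. Control mice had 62.4, 64.4, 56.4, 35.4 and 55.4%, and MCR mice had 14.8, 15.8 and 23.4%. LFCR mice had 8.71, 11.7, 43.04 and 41.98% and split into a low and a high pair, LFCR mice 63 and 67 below every MCR mouse and LFCR mice 69 and 72 inside the Control range. LFD mice had 18.6, 47.9 and 37.5% and ICR mice 45.2, 26.1, 40.6, 42.9 and 50.1%. LFCR mice 63 and 67 and LFD mouse 42, the low ones here, are also the mice with the lowest library means outside MCR. The part of this overall level in the Apobr values was not tested. With library means subtracted the cluster's difference was -27.5 points in MCR and -22.3 in LFCR, against -36.8 and -28.4 without.

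Cluster 2 of Apobr has 10 CpGs in the 3'UTR, chr7:126588437-126589010, and its last CpG is also assigned to the neighbouring gene Il27. The 4 Control mice with a value had 91.2, 83.0, 90.4 and 85.7%, and the MCR mice 69.4, 57.6 and 68.8%. LFCR mice had 64.4, 66.9, 81.8 and 85.4%, with the same low and high pairs as at cluster 1. The mean was 87.6% ± 3.88 (SD, n = 4) in Control and 65.3% ± 6.67 (SD, n = 3) in MCR. Subtracting library means took the difference from -22.3 to -13.1 points in MCR and from -12.9 to -6.92 in LFCR.

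Lsp1 was higher in MCR at its first cluster and lower at the others. Cluster 3, 6 CpGs within chr7:142484976-142485018, was the most deeply covered of the 14 (median 184 reads). Control mice had 76.9, 82.5, 60.0, 59.3 and 62.9% and MCR mice 28.6, 21.8 and 28.3%. LFCR mice had 15.5, 24.1, 42.6 and 55.8%, LFD mice 22.1, 57.04 and 51.5% and ICR mice 48.1, 28.2, 48.7, 54.7 and 45.5%. Here every mouse of all 4 weight-loss groups was below the lowest of the 5 Control mice, while Obese mouse 22, at 71.1%, was inside the Control range. The Control mean was 68.3% ± 10.7 (SD, n = 5). MCR averaged 26.2% ± 3.88 (SD, n = 3), LFCR 34.5% ± 18.2 (SD, n = 4), LFD 43.5% ± 18.8 (SD, n = 3) and ICR 45.04% ± 10.01 (SD, n = 5).

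At Lsp1 cluster 1, 3 CpGs at chr7:142461788-142461897 in the authors' gene body class, the order was inverted. Control mice had 61.1, 51.3, 68.3, 69.04 and 64.1%, and MCR mice 82.4, 89.6 and 88.5%. No MCR mouse was as low as any Control mouse. ICR mice had 75.7, 80.7, 76.9, 69.4 and 64.6%, LFD mice 81.9, 66.8 and 83.02% and LFCR mice 86.9, 78.4, 70.2 and 56.5%. The same LFCR mice 63 and 67 that were low elsewhere were the high ones of their group here. The largest share of this lay at chr7:142461788, where Control mice had 33.3, 13.2, 46.9, 36.4 and 42.2% and MCR mice 68.6, 75 and 77.4%.

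Cluster 2 of Lsp1, chr7:142470927-142471123, had 44.4, 54.4, 45.2, 22.8 and 44.1% in Control mice and 7.204, 28.7 and 7.31% in MCR mice, so MCR mouse 95 overlapped Control mouse 10. The pair of CpGs at chr7:142475045 and chr7:142475173 was lower in MCR by 28.5 and 29.1 points. Cluster 4, chr7:142493498-142493657, whose 3 CpGs are also assigned to Prr33, was at 90.4% ± 3.42 (SD, n = 5) in Control and 79.8% ± 4.56 (SD, n = 3) in MCR. Little of this remained with library means subtracted: the difference went from -10.6 to -1.33 points in MCR and from -6.88 to -0.777 in LFCR. At cluster 2 the MCR difference went from -27.8 to -18.5 points. The lone 5'UTR CpG at chr7:142491834, likewise shared with Prr33, was at 93.6% ± 2.896 (SD, n = 5) and 84.7% ± 7.71 (SD, n = 3). Cluster 4 and this CpG stayed highly methylated, with no mouse under 76.0%.

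**Figure D3:**
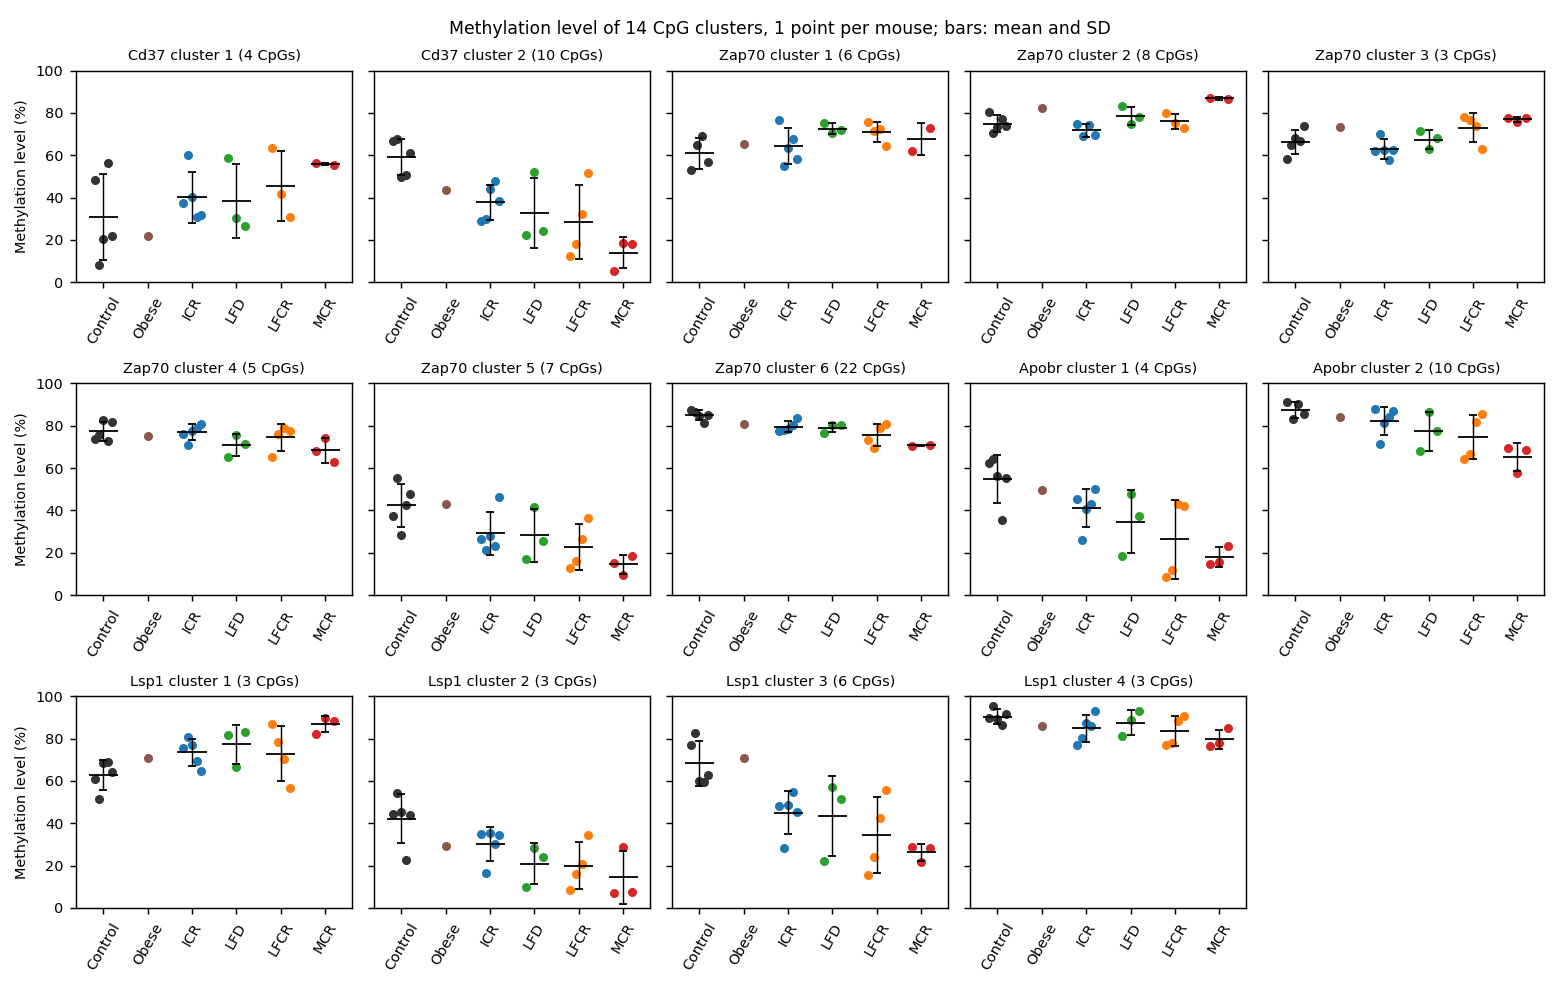
Methylation level (y axis, %) of the 14 clusters in each mouse, by group (x axis); horizontal bars are group means and vertical bars SDs. The MCR mice lie lowest at Cd37 cluster 2 (5.33% to 18.6%) and have their highest means at Zap70 cluster 2 (86.5% and 87.3%, 2 mice) and Lsp1 cluster 1 (82.4% to 89.6%).

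Few CpGs lay near the coverage minimum. The members just inside it were Cd37 chr7:45235683 (10.5 reads; 46.4% in Control, 13.6% in MCR) and Zap70 chr1:36781191 (15.05 reads; 94.1% and 87.5%). Just outside were Lsp1 chr7:142475194 (8.67 reads; 90.4% and 46.2%) and Zap70 chr1:36781318 (8.19 reads; 83.3% and 36.4%), each with a single MCR mouse. The 4 CpGs under the minimum, 3 in Lsp1 and 1 in Zap70, were all lower in MCR.

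For tests, 1 level per gene and mouse was taken over the CpGs with values in at least 3 mice of every group that has them. This filter kept 62 of the 98 CpGs, 9 in Cd37, 26 in Zap70, 10 in Apobr and 17 in Lsp1. Among others it removed Cd37 cluster 1, most CpGs of Zap70 clusters 1, 2 and 6 and part of Zap70 cluster 3. The Cd37 level averaged 60.2% ± 8.77 (SD, n = 5) for Control, 37.7% ± 8.71 (SD, n = 5) for ICR, 32.9% ± 17.4 (SD, n = 3) for LFD, 28.6% ± 17.95 (SD, n = 4) for LFCR and 13.9% ± 7.58 (SD, n = 3) for MCR. Zap70 ran from 66.6% ± 2.65 (SD, n = 5) through 60.97% ± 3.55 (SD, n = 5), 59.97% ± 4.28 (SD, n = 3) and 59.6% ± 4.01 (SD, n = 4) to 56.1% ± 0.952 (SD, n = 3) in the same order of groups. Apobr began at 75.7% ± 4.87 (SD, n = 5) for Control, followed by 67.9% ± 7.39 (SD, n = 5) for ICR, 61.8% ± 9.92 (SD, n = 3) for LFD, 56.8% ± 14.9 (SD, n = 4) for LFCR and 47.6% ± 4.93 (SD, n = 3) for MCR. Lsp1 averaged 70.6% ± 4.58 (SD, n = 5) for Control, 60.04% ± 4.703 (SD, n = 5) for ICR, 60.01% ± 8.92 (SD, n = 3) for LFD, 54.1% ± 8.205 (SD, n = 4) for LFCR and 50.996% ± 1.003 (SD, n = 3) for MCR. The order of the means, Control highest, then ICR, LFD, LFCR and MCR, was the same in all 4 genes. Neighbouring weight-loss groups in that order differed by less than the larger of their SDs in every gene, and Control and ICR by more. Obese mouse 22 was at 41.97% in Cd37, 68.2% in Zap70, 72.8% in Apobr and 70.5% in Lsp1, below the Control range only in Cd37.

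The losses in MCR, which led to the choice of the genes, amounted to -46.3 points in Cd37, -28.2 in Apobr, -19.6 in Lsp1 and -10.5 in Zap70, and those in LFCR to -31.6, -18.9, -16.5 and -6.93 points. No test is given for them. The median over all 7195 genes was -6.69 points in MCR and -4.30 in LFCR. With the library means subtracted, Cd37 stood at -37.0, Apobr at -18.9, Lsp1 at -10.3 and Zap70 at -1.17 points in MCR, and in LFCR the same genes stood at -25.5, -12.8, -10.4 and -0.841 points. Zap70 had the smallest of these differences in both diets, and its level averages over those CpGs of clusters of both signs that passed the filter. The part of the library level in the Zap70 difference was not tested. Within Zap70 the clusters still differed in sign on that scale, with -18.5 points at cluster 5 and 21.03 at cluster 2. Without MCR mouse 85 the Cd37 difference was -21.6 points, because the CpGs of cluster 1 then meet the filter on mice and enter the gene's level. With CpGs of at least 2 mice per group, which also lets cluster 1 in, Cd37 stood at -29.7 points in MCR and -19.8 in LFCR. In the same setting Zap70 stood at -7.97 and -5.54 points, Apobr at -25.6 and -16.5 and Lsp1 at -20.4 and -17.1.

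Members were tested in 5 comparisons, leaving out MCR and LFCR against Control. No member CpG, gene or cluster was called in these 5 (limma, Benjamini-Hochberg over all CpGs, genes or clusters, adjusted p under 0.05). The share called in the whole table was 0% of 129217 CpGs and 0% of 7195 genes in each of them, and of 26750 clusters 0.00374% in LFD against Control and 0% in the other 4. At an unadjusted p under 0.05, 27 of the 62 member CpGs passed in LFD against Control, 20 in ICR against Control, 4 in LFD against ICR, 6 in LFCR against ICR and 3 in LFCR against LFD. Over all CpGs the shares were 18.9%, 12.8%, 4.46%, 7.90% and 5.24%. Of the 14 clusters 7, 4, 1, 1 and 0 did so in the same order, and of the 4 genes 4 did so in LFD against Control, 3 in ICR against Control and 0 in the other 3 comparisons. Over all clusters the shares were 22.3%, 13.9%, 4.07%, 9.07% and 5.07%, and over all genes 30.03%, 17.8%, 3.36%, 11.1% and 4.27%. The first 2 comparisons reuse the Control mice with which the members were chosen, so they are not independent of the choice. The last 2 reuse the LFCR mice, whose losses also led to the choice, and are not independent of it either.

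LFD against Control gave the largest tested differences. Cd37 differed by -27.3 points (SE 8.497, 95% interval -45.3 to -9.42, limma adjusted p = 0.108). In LFD mice its level was 22.4, 52.99 and 23.2%, 2 of them below all Control mice, which had 67.04, 70.1, 49.7, 53.1 and 61.03%. The difference was -6.58 (SE 2.36, limma adjusted p = 0.117) in Zap70, -13.9 (SE 6.21, limma adjusted p = 0.149) in Apobr and -10.6 (SE 4.14, limma adjusted p = 0.123) in Lsp1. With library means subtracted, Zap70 was at -2.26 and Lsp1 at -6.304 points, and with CpGs of at least 2 mice per group Cd37 was at -16.5 and Zap70 at -4.06 points. One mouse decided the calls: without LFD mouse 47, 2 member genes were called, Cd37 at -37.4 points (SE 8.61, limma adjusted p = 0.0455) and Zap70 at -8.93 points (SE 2.51, limma adjusted p = 0.0460), among 769 of all genes. Cd37 cluster 2 was called as well, at -35.8 points (SE 8.49, limma adjusted p = 0.0495), among 477 of 26094 clusters. The spread of the 2 LFD mice that then remain is borrowed from the other groups. LFD mouse 47 was the nearest of its group to Control in both genes, and Control served to choose the members. These calls therefore lend the members no support.

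ICR against Control was lower in each of the 4 genes without passing the threshold. The difference was -22.5 (SE 7.36, limma adjusted p = 0.278) in Cd37, -5.58 (SE 2.04, limma adjusted p = 0.278) in Zap70, -7.79 (SE 5.38, limma adjusted p = 0.387) in Apobr and -10.6 (SE 3.58, limma adjusted p = 0.278) in Lsp1. With library means subtracted, Zap70 was at -2.55 and Apobr at -4.76 points, and with CpGs of at least 2 mice per group Cd37 was at -12.8 points. By cluster the largest were Lsp1 cluster 3 at -23.3 points (95% interval -39.9 to -6.61, limma adjusted p = 0.339) and Cd37 cluster 2 at -21.4 points (95% interval -36.6 to -6.22, limma adjusted p = 0.339). At both of them all 5 ICR mice were below all 5 Control mice, with which the members were chosen. No share over all clusters stands beside this.

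Between weight-loss diets the intervals were wide. LFCR against ICR leaves out Control and MCR but reuses the LFCR mice whose losses led to the choice. It was -9.12 points (SE 7.805, 95% interval -25.6 to 7.34, limma adjusted p = 0.511) in Cd37 and -11.1 points (SE 5.704, 95% interval -23.1 to 0.929, limma adjusted p = 0.407) in Apobr. Zap70 differed by -1.35 points (SE 2.17, 95% interval -5.92 to 3.22, limma adjusted p = 0.734) and Lsp1 by -5.91 points (SE 3.8001, 95% interval -13.9 to 2.11, limma adjusted p = 0.429). LFD against ICR ranged over the 4 genes from -6.13 points in Apobr (95% interval -19.2 to 6.97) to -0.0350 in Lsp1 (95% interval -8.76 to 8.69). LFCR against LFD ranged from -5.87 points in Lsp1 (95% interval -14.995 to 3.25) to -0.348 in Zap70 (95% interval -5.55 to 4.85). The intervals leave room for large differences, above all in Cd37 and Apobr, so these comparisons do not show that the diets act alike. The cluster of smallest p was Zap70 cluster 3 in LFCR against ICR, higher by 9.93 points (95% interval 2.89 to 16.97, limma adjusted p = 0.532).

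**Figure D4:**
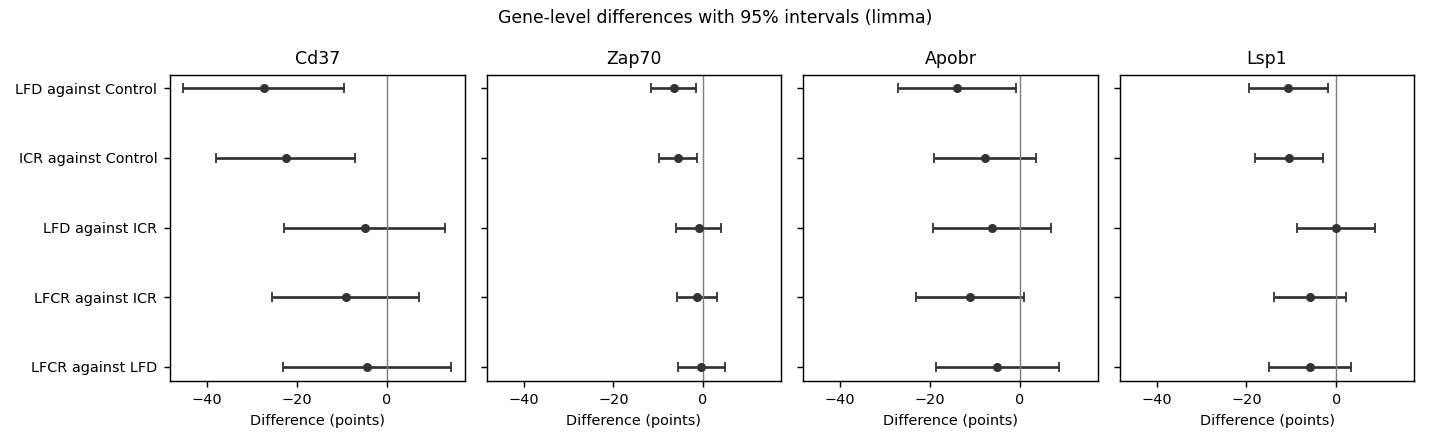
Difference in gene level (x axis, percentage points) with its 95% interval from limma for Cd37, Zap70, Apobr and Lsp1 (panels) in the 5 tested comparisons (rows). The points of LFD and ICR against Control lie to the left of 0 in all 4 genes, but the Apobr interval in ICR against Control reaches 3.55. The comparisons between weight-loss diets have intervals that include 0.

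Other genes of the members' pathways were set beside them from lists, with the members themselves left out, in MCR against Control (limma, adjusted p under 0.05 over 7195 genes, of which 59% were lower and 3.95% higher, with a median of -6.69 points). The genes named, here and for the cell types below, are the 2 of each list with the largest absolute difference in this same contrast. The lists were chosen with earlier results of these data known, so the adjusted p-values of named genes are description only. Among 18 measured genes used across leukocytes, 6 were lower and 7 higher, with a median of 1.35 points. Those that rose included Ptpn6, the phosphatase SHP-1 that restrains receptor signalling, with 48.6% ± 2.04 (SD, n = 5) in Control and 73.2% ± 0.858 (SD, n = 3) in MCR (limma adjusted p = 0.000452), and Inpp5d, the lipid phosphatase SHIP1, with 19.2% ± 15.1 (SD, n = 3) in Control and 53.8% ± 8.81 (SD, n = 3) in MCR (limma adjusted p = 0.0232). Of 17 T cell receptor signalling genes 9 were lower and 5 higher (median -6.05 points). Lat, the membrane adaptor that Zap70 phosphorylates, rose, with 32.6% ± 8.28 (SD, n = 5) in Control and 68.03% ± 2.71 (SD, n = 3) in MCR (limma adjusted p = 0.00117). The leukocyte actin list had 13 lower and 4 higher of 21 (median -7.29 points), with Fgd2, a Cdc42 exchange factor, at 75.3% ± 2.97 (SD, n = 4) in Control and 53.5% ± 5.16 (SD, n = 3) in MCR (limma adjusted p = 0.00759), and Arhgap30, a GTPase-activating protein, at 61.02% ± 5.799 (SD, n = 4) in Control and 81.7% ± 7.98 (SD, n = 3) in MCR (limma adjusted p = 0.0102).

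In the tetraspanin and lipoprotein lists every called gene was lower. Of 12 other tetraspanins 11 were lower and 0 higher (median -12.9 points), led by Tspan32 with 66.8% ± 13.7 (SD, n = 5) in Control and 36.7% ± 1.76 (SD, n = 3) in MCR (limma adjusted p = 0.00766) and Tspan11 with 34.5% ± 6.78 (SD, n = 4) in Control and 11.8% ± 4.53 (SD, n = 3) in MCR (limma adjusted p = 0.000949). Of 15 genes of lipoprotein uptake 11 were lower and 0 higher (median -8.23 points), led by the apolipoproteins Apoc1, with 73.5% ± 7.26 (SD, n = 5) in Control and 41.98% ± 2.18 (SD, n = 3) in MCR (limma adjusted p = 0.000852), and Apoc2, with 81.5% ± 2.66 (SD, n = 5) in Control and 63.4% ± 5.85 (SD, n = 3) in MCR (limma adjusted p = 0.00266). In LFCR against Control, where 39.2% of all genes were lower and 2.35% higher (median -4.30 points), the counts of lower and higher genes were 2 and 5 for the pan-leukocyte list, 6 and 5 for T cell receptor signalling, 3 and 2 for leukocyte actin, 10 and 0 for tetraspanins and 9 and 0 for lipoprotein uptake. In LFD and ICR against Control no gene of any list was called (limma), as was none of the 7195 genes. At an unadjusted p under 0.05, 50 and 27 of the 135 measured list genes passed, or 37.04% and 20%, against 30.03% and 17.8% of all genes.

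Markers of single cell types are set beside the members here, and their part in the members' differences was not tested. Their counts are to be read against the 59% of all genes that were lower and the 3.95% that were higher in MCR. The mean level over 7 measured T cell markers was 58.9% to 65.7% in Control mice and 57.3% to 58.9% in MCR mice, with 2 lower and 0 higher. For 5 B cell markers it was 51.6% to 54.4% and 52.8% to 58.3%, with 1 lower and 1 higher, and for 4 macrophage and granulocyte markers 72.99% to 78.1% and 67.3% to 69.8%, with 3 lower and 0 higher. Cd79b, a B cell receptor subunit, rose, with 17.4% ± 5.04 (SD, n = 5) in Control and 44.01% ± 11.996 (SD, n = 3) in MCR (limma adjusted p = 0.000655), and Cd4, the helper T cell coreceptor, fell, with 82.6% ± 5.35 (SD, n = 5) in Control and 64.01% ± 1.96 (SD, n = 3) in MCR (limma adjusted p = 0.000792). Foxp3, the regulatory T cell factor, was not called, with 93.5% ± 2.31 (SD, n = 4) in Control and 87.02% ± 1.29 (SD, n = 3) in MCR (limma adjusted p = 0.126), and Pax5, a B cell factor, fell, with 41.8% ± 3.11 (SD, n = 5) in Control and 31.4% ± 1.13 (SD, n = 3) in MCR (limma adjusted p = 0.00141). Adipocyte markers were lower at 6 of 8 and higher at 0, with 60.9% to 68.4% in Control and 48.8% to 52.6% in MCR, endothelial markers lower at 8 and higher at 1 of 12 (50.7% to 55.3% and 38.9% to 41.6%) and fibroblast markers lower at 3 and higher at 1 of 6 (46.5% to 53.7% and 37.5% to 38.5%). Luminal epithelial markers were lower at 4 and higher at 1 of 13, basal markers lower at 1 and higher at 0 of 3, and skeletal muscle markers lower at 6 and higher at 0 of 8. The share of lower genes was under that of all genes in the T cell, B cell, fibroblast, luminal and basal lists and over it in the other 4. The markers of largest difference in MCR were Cx3cr1 (-7.87 points) and Spi1 (-7.45) for macrophages and granulocytes, Aqp7 (-24.9) and Slc2a4 (-22.4) for adipocytes, and Robo4 (-34.1) and Egfl7 (-27.2) for endothelium. They were Pi16 (-22.5) and Col1a1 (-17.1) for fibroblasts, Krt7 (-26.6) and Cldn4 (-18.7) for luminal epithelium, Tnnt3 (-17.6) and Ryr1 (-10.6) for muscle, and Mylk (-15.2) and Krt17 (-4.92) for basal epithelium, all called except Krt17 (limma adjusted p = 0.263).

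The genes whose levels over the libraries were most like each member's were named by Pearson's r with 7155 other genes at least 10 kb away, as a description. For Cd37 they were Gm44983 (r = 0.956), Lrtm2 (r = 0.954) and Hgfac (r = 0.950), where the median gene had r = 0.684 and the library mean r = 0.928. For Zap70 they were Hcrtr1 (r = 0.931), Tsga10ip (r = 0.929) and Gcc1 (r = 0.924), with 0.649 for the median gene and 0.875 for the library mean. Apobr was nearest to Glis1 (r = 0.982), Llgl2 (r = 0.979) and Gm49320 (r = 0.978), with 0.724 and 0.970, and Lsp1 to Gm16731 (r = 0.971), Rasip1 (r = 0.965) and Ralgps1 (r = 0.963), with 0.703 and 0.948. All values of a library share its overall level, and Gcc1 has a value in 20 libraries while the others have 21.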

How the data were processed

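RRBS of mammary fat pad DNA was processed by the authors with Bismark on mm10, per the submitters' processing notes; versions, filters and the coverage minimum are not given in the sources used here. The table the authors deposited gives the methylation level of each CpG and library as a fraction (0 to 1), printed here in percent, and the average coverage of each CpG as a signal in reads over 21 libraries. It holds no counts per library, so no binomial interval was computed and the planned model of counts gave way to the planned fallback, limma on the levels. Gene assignments and features are the table's own. The 38 CpGs that lie outside the named chromosomes were dropped.

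CpGs needed an average coverage of at least 10 reads and, for tests, a value in 3 mice of every group of that size. For a gene or cluster, the mouse's average deviation from the CpG means was added to the average of those means, and this level was given for at least 3 CpGs of which the mouse has a share of 0.5; clusters needed 2 mice per group. Group means were fitted for all 6 groups together with limma's moderated variance (no trend, not robust), two-sided, with Benjamini-Hochberg adjustment over 129217 CpGs, 7195 genes or 26750 clusters and results called where the adjusted p was under 0.05. The fit was tested on simulated data. The members and the gene lists were chosen with earlier results of these data known, so MCR and LFCR against Control are described for the members without a test. All 4 members are named. In each list the 2 measured genes with the largest absolute difference in MCR against Control were to be named, and for likeness the 3 genes of highest r over at least 18 libraries. Positions and sequences are from RefSeq (GRCm38.p6), in which all 4 genes matched and 3 had a start window.

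Alternatives were coverage minimums of 5 and 20, an arcsine square root scale, all 25 libraries, only the compared groups in the fit, a trended and robust variance, a minimum difference of 10 points, library means subtracted, promoter-side CpGs only and leaving out each mouse. Clusters as units and at least 2 mice per group were added after seeing the data. Fits were run with limma 3.58.1 in R 4.3.3; tables were read with the data.table package (1.17.8) and figures drawn with matplotlib 3.10.9 and pandas 2.3.3 under Python 3.11.15.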

Additional observations from a re-analysis of the deposited data

Results flagged for a closer look

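Of 54 groups of mice checked at the gene levels and clusters, 3 had a mouse far from the others of its group by Dixon's criterion, which chance meets in about 1 in 20 groups. All 3 were in ICR. The Zap70 gene level of ICR mouse 112 was 67.1%, above the other 4 ICR mice at 58.4% to 60.8% and within the Control range. At Zap70 cluster 5, the 1st exon cluster in a CpG island, the same mouse had 46.4% against 21.4% to 28.0% in the others. At Lsp1 cluster 2, ICR mouse 103 had 16.6% against 30.0% to 35.2%. ICR mouse 112 had the highest library mean of its group (54.8%) and ICR mouse 103 the lowest (50.8%), and the part of this in their values was not tested.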

How the results depend on the processing

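No member CpG, gene or cluster was called in ICR against Control, LFD against ICR, LFCR against ICR or LFCR against LFD under any alternative, nor in LFD against Control except when LFD mouse 47 was left out. Leaving out 1 mouse at a time gave 0 to 2 called genes and 0 to 1 called clusters in LFD against Control. The median difference over the 4 genes, -23.9 points in MCR and -17.7 in LFCR, was -14.6 and -11.6 with library means subtracted and -38.1 and -29.7 over promoter, 5'UTR and 1st exon CpGs (3 genes, since Lsp1 has too few); without 1 mouse at a time it ranged over -25.2 to -20.4 in MCR and -21.7 to -14.1 in LFCR. With CpGs of at least 2 mice per group, Cd37 stood at -29.7 points in MCR. In LFD against Control, Apobr (-8.55 points) and Lsp1 (-5.48) were smallest without LFD mouse 42. Apobr was at -8.72 there on all 25 libraries, and in ICR against Control at -4.82 without ICR mouse 103. In LFCR against Control, Cd37 cluster 1 (14.5 points) was at 5.52 without LFCR mouse 63 and 8.82 without Control mouse 2, and Lsp1 cluster 1 (10.2) at 5.57 without LFCR mouse 63 and 15.7 without LFCR mouse 72.

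Among the other results 26 values changed sign, all of small differences and none of a call; the cause was not tested beyond what each setting alters. With library means subtracted these were Zap70 in LFD against ICR (0.286 points), LFCR against ICR (1.70) and LFCR against LFD (1.42), Lsp1 in LFD against ICR (1.26), and Zap70 cluster 4 in MCR (0.239) and LFCR (3.18) against Control. Lsp1 in LFD against ICR was 1.39 on all 25 libraries, and Zap70 there was 0.132 with at least 2 mice per group. Without 1 mouse at a time the ranges that crossed 0 were, in LFD against ICR, -14.9 to 0.386 for Cd37, -3.37 to 0.794 for Zap70 and -2.82 to 5.11 for Lsp1; in LFCR against ICR -2.64 to 0.360 for Zap70; in LFCR against LFD -12.3 to 5.78 for Cd37 and -2.14 to 2.02 for Zap70; and in LFCR against Control -1.01 to 2.67 for Zap70 cluster 2 and -4.39 to 0.216 for cluster 4. On the arcsine scale only counts of calls were computed. No paired analysis was possible because the mouse numbers in the labels are not shared between groups. Depth per library is unknown, so the error of single values cannot be stated, and 3 MCR mice and 1 Obese mouse limit every statement on those groups.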
